A study of Mus musculus with 41 samples.

Results

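The transcripts described here come from 7 genes of the canonical Wnt pathway, chosen by name from the 55487 genes of the table: the TCF/LEF factors Lef1, Tcf7 and Tcf7l1, and the Wnt targets Axin2, Sp5, Cdx1 and Nkd1. All 7 were found, and all 7 passed the filter on low values (1 CPM or more in 3 or more libraries). CPM is a gene's reads scaled to a common total of assigned reads per library. RNA was read by QuantSeq, which sequences a tag near the 3′ end of each transcript, from E14 mouse embryonic stem cells in 41 libraries. E14 is an established line derived from a blastocyst. A WT line with Esrrb was compared with 2 lines, KO2 and KO3, that the labels describe as genetically depleted for Esrrb, a nuclear receptor that helps to hold naive pluripotency. All 3 lines share the E14 background and N2B27 basal medium. Cells were kept in 2iL, which adds the GSK3 inhibitor CHIR99021, the MEK inhibitor PD0325901 and LIF. For the path to formative stem cells they spent 1 day in N2B27 and then 1, 3 or 5 days in AloXR, which adds activin A, the tankyrase inhibitor XAV and BMS439 (spelled as in the labels). Each line gave 3 libraries in 2iL and 4 at each AloXR time, except KO3 with 2 at day 3 and 2 at day 5. The labels give 1 WT line and do not say which part of Esrrb was removed, or whether a group's libraries came from separate cultures. The p-values therefore measure the spread between libraries, which may be technical.

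Libraries held 3424064 to 5736053 assigned reads (median 4581394), so that a count of 0 allows up to 3 reads, or 0.523 to 0.876 CPM, for counting error only. Esrrb tags stood at 308.95 to 434.35 CPM in WT in 2iL, at 51.99 to 56.7 in KO2 and at 102.77 to 165.62 in KO3. At AloXR day 1 KO3 (26.14 to 41.35 CPM) lay above WT (12.15 to 17.75 CPM), and KO2 (1.64 to 5.52 CPM) lay below WT. Tags of a gene whose deleted part is unknown do not measure protein. All 8 pluripotent cell markers examined (Sox2, Nanog, Utf1, Sall4, Lin28a, Dppa4, Tdgf1 and Dnmt3b) had reads in each of the 12 groups, with a summed level of 1456 to 3862 CPM per library. Libraries are numbered within a group by accession order, which pairs nothing. The third 2iL library of each line stood apart from the first pair: Dnmt3b, a DNA methyltransferase of formative cells, held 107.34 to 120.57 CPM there and 39.72 to 59.86 CPM in the other 6. No other annotated gene covered the 3′ end of any of the 7 genes.

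In the canonical pathway, Wnt ligands bind Frizzled and Lrp receptors and so hold back a destruction complex of Axin, Apc, GSK3 and casein kinase that otherwise marks β-catenin for degradation. Stabilised β-catenin enters the nucleus and joins TCF/LEF factors on target genes, of which Axin2 and Nkd1 encode feedback inhibitors. In mouse embryonic stem cells Tcf7l1 (also called Tcf3) acts mainly as a repressor of naive genes, and inhibition of GSK3 relieves that repression. CHIR99021 thus acts on the pathway from above β-catenin, and XAV acts in the opposite sense, because tankyrase inhibition stabilises Axin.

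RefSeq start site windows (GRCm38.p6, from 250 bases before to 50 after a start) were given for 6 of the 7 genes, as 10 windows. Cdx1 had none. The Sp5 and Axin2 windows are shown because transcripts of both targets fell on leaving 2iL, and only the Sp5 window held a searched motif, in capitals.
Sp5 (chr2:70474673-70474972, plus strand): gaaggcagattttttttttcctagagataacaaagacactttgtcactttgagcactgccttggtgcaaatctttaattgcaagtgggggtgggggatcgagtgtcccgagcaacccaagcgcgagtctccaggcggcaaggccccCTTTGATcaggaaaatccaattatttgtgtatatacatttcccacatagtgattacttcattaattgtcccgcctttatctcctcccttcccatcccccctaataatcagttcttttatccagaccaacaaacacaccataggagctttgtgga
Axin2 (chr11:108920099-108920398, plus strand): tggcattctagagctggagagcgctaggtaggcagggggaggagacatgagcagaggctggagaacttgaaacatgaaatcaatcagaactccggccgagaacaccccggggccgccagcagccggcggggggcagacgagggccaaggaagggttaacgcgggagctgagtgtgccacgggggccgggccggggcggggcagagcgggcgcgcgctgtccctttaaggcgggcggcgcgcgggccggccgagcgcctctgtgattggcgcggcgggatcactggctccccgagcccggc
The search was for exact matches on both strands to the TCF/LEF motifs CTTTGAT and CTTTGAA and to the Esrrb motif TCAAGGTCA, none of which overlaps another in these windows. The Sp5 match is CTTTGAT on the printed strand, with its first base 104 bases before the start site. CTTTGAT occurs in 3.73% of all 32851 windows of this length, CTTTGAA in 5.14% and TCAAGGTCA in 0.42%. The windows of Lef1 (4), Tcf7 (2), Tcf7l1, Axin2 and Nkd1 held none of these letters, which says nothing of sites elsewhere.

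The step from 2iL to AloXR day 1 removed 1 medium and added the other, so the loss of CHIR99021, PD0325901 and LIF and the gain of activin A, XAV and BMS439 cannot be told apart. Of the 7 genes, 5 were called in WT, 4 in KO2 and 4 in KO3, beside 36.4%, 30.2% and 33.5% of all 16967 genes tested. In each line 3 of them fell, the targets Axin2, Sp5 and Cdx1, where 18.7%, 17.6% and 16.6% of all genes fell. A call needed a Benjamini-Hochberg adjusted p under 0.05 in limma and a 1.5-fold or larger change (0.58 in log2 units). Where both depleted lines were averaged, each had to show the same direction. Because the RNA is of whole cultures, fewer cells with a transcript and less of it per cell cannot be told apart, here or below.

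Axin2, a scaffold of the destruction complex and a feedback inhibitor (chr11:108920349-108950783), held 17.52, 36.18 and 54.71 CPM in the WT libraries in 2iL and 3.85, 3.93, 6.4 and 5.97 CPM at AloXR day 1. The KO2 libraries held 34.17, 46.47 and 38.29 CPM in 2iL and 4.02, 3.45, 4.66 and 0.82 CPM at day 1. The KO3 libraries held 28.25, 43.07 and 40.62 CPM in 2iL and 8.92, 5.25, 4.07 and 3.61 CPM at day 1. In each line every day 1 library lay below every 2iL library. On the log2(CPM + 1) scale the change was -2.51 ± 0.33 (SE) in WT (adjusted p = 1.77e-08), -3.37 ± 0.33 in KO2 and -2.61 ± 0.33 in KO3. The transcript stayed low, at 2.18 to 5.46 CPM in WT and 1.36 to 4.94 CPM in the depleted lines over days 3 and 5, and none of the 6 later steps was called. Axin2 was detected in all 41 libraries.

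Sp5, a zinc finger repressor that is among the most Wnt-responsive targets in these cells (chr2:70474923-70477729), fell to the detection limit. Its 2iL levels were 19.11, 30.45 and 69.08 CPM in WT, 122.66, 165.58 and 95.62 CPM in KO2, and 54.05, 154.65 and 69.73 CPM in KO3. All 32 AloXR libraries were at 0 to 0.71 CPM except 1 KO2 library at day 5 with 2.13 CPM. Pooled over the libraries of a group, Sp5 was 278-fold higher in 2iL than at AloXR day 1 in WT, from 523 reads against 3 (95% interval 94.7 to 1354.5). The same ratio was 420.2 in KO2 (179.7 to 1295.7) and 424 in KO3 (165.4 to 1559.6), with intervals that overlap widely and cover counting error only.

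Cdx1, a caudal-type homeobox factor of posterior axis formation (chr18:61018862-61036199), went from a clear level to none. Its 2iL levels were 30.49, 40.6 and 34.54 CPM in WT, 66.0, 61.69 and 25.94 CPM in KO2, and 37.37, 55.69 and 47.42 CPM in KO3. None of the 12 libraries at AloXR day 1 had a Cdx1 read. Against a floor of 3 reads over the group, Cdx1 was at least 240.1-fold lower at day 1 in WT, 270.5-fold in KO2 and 287-fold in KO3. Later, 2 WT libraries at day 3 (0.2 and 0.24 CPM) and 1 KO2 library at day 5 (0.23 CPM) held 1 read each, and no other library held any.

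Nkd1, which encodes a Dishevelled-binding inhibitor (chr8:88521354-88594884), did not follow the other 3 targets. It stood at 2.05, 3.12 and 3.43 CPM in WT in 2iL and at 4.2, 3.74, 3.3 and 2.34 CPM at day 1. Over all 41 libraries it ranged from 1.42 to 6.43 CPM, and the ranges of neighbouring groups in the order of group means always overlapped. Its step from 2iL to day 1 was 0.18 ± 0.28 in WT (adjusted p = 0.628), -0.50 ± 0.28 in KO2 (0.158) and 0.32 ± 0.28 in KO3 (0.380). Nkd1 was called in none of the 19 comparisons by limma, edgeR or DESeq2. Its WT step from day 3 to 5, 0.48 ± 0.26 (adjusted p = 0.204), was called without the third day 5 library (0.76, 0.0347).

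**Figure D1:**
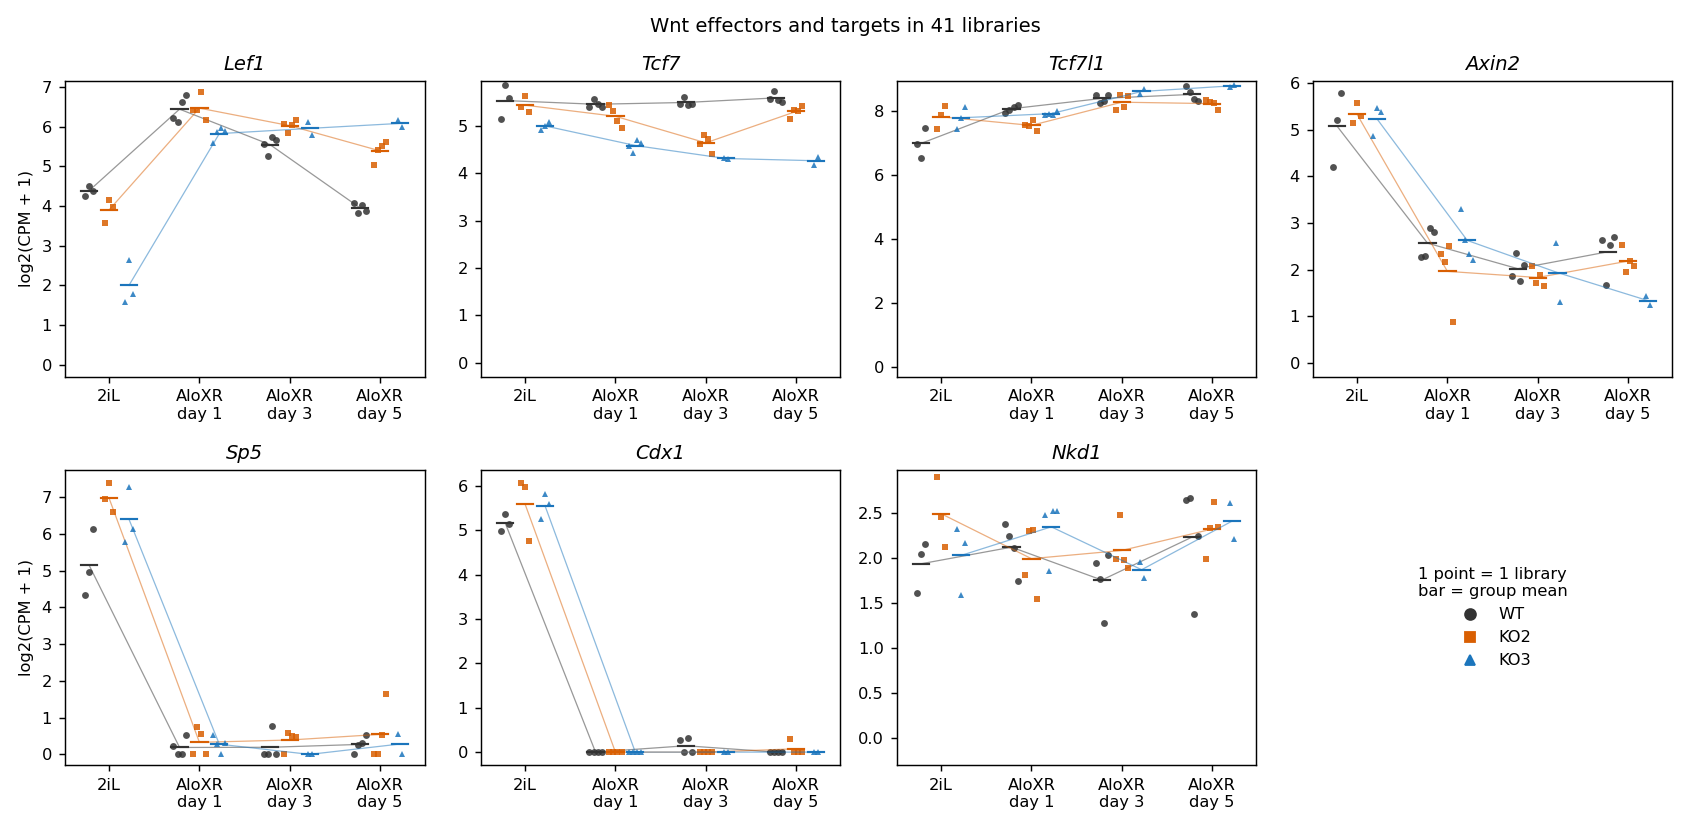
Level of each gene as log2(CPM + 1) against medium and time, with 1 point per library, coloured by line, and a bar at each group mean. Sp5 and Cdx1 drop from between 19.11 and 165.58 CPM in 2iL to at most 2.13 CPM in AloXR, Lef1 rises and then falls in WT (87.5 CPM at day 1, 14.5 CPM at day 5), and Nkd1 stays between 1.42 and 6.43 CPM.

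The TCF/LEF factors did not fall with these 3 targets: in WT, Lef1 and Tcf7l1 rose and Tcf7 was not called. Lef1, the factor that acts mostly as an activator with β-catenin (chr3:131110471-131224356), rose from 18.2, 21.86 and 19.95 CPM in the WT libraries in 2iL to 73.33, 68.63, 97.39 and 110.83 CPM at day 1. In KO2 it rose from 10.81, 16.84 and 14.86 CPM to 84.09, 84.38, 117.15 and 70.34 CPM. In KO3 it rose from 2.0, 5.21 and 2.44 CPM to 46.79, 57.52, 61.7 and 57.81 CPM. The groups did not overlap in any line, and the change was 2.05 ± 0.19 in WT (adjusted p = 1.15e-12), 2.57 ± 0.19 in KO2 and 3.82 ± 0.19 in KO3. The change in the mean of both depleted lines exceeded that in WT by 1.14 ± 0.23 (adjusted p = 4.34e-04 on the difference of changes, for which 9.15% of all genes were called). In KO2 alone the excess was 0.51 (adjusted p = 0.255), and in KO3 alone 1.77.

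Tcf7l1, the repressor of the family (chr6:72626378-72789254), rose on exit in WT only. Its WT libraries held 125.6, 91.1 and 177.86 CPM in 2iL and 245.7, 260.7, 279.38 and 295.63 CPM at day 1, with no overlap (1.08 ± 0.16, adjusted p = 2.55e-07). The KO2 libraries went from 174.94, 233.35 and 284.14 CPM to 190.78, 185.32, 211.71 and 165.21 CPM, and the KO3 libraries from 173.95, 221.56 and 281.38 CPM to 237.24, 240.81, 236.95 and 255.2 CPM. In both depleted lines the 2 ranges overlapped, and the changes of -0.27 ± 0.16 (adjusted p = 0.178) and 0.13 ± 0.16 (0.536) were not called. The difference of changes was itself called, at -1.15 ± 0.19 (adjusted p = 3.55e-05), with -1.35 for KO2 and -0.95 for KO3. The errors of these Tcf7l1 changes use 1 spread over all 12 groups, and its 2iL libraries spread more widely than those in AloXR. Tcf7, the remaining factor (chr11:52252371-52283014), stood at 34.58, 57.52 and 47.63 CPM in WT in 2iL and at 41.3, 46.75, 43.12 and 41.56 CPM at day 1 (-0.08 ± 0.14, adjusted p = 0.680). It was not called at this step in KO2 (-0.24 ± 0.14) or KO3 (-0.42 ± 0.14, adjusted p = 0.0127, under 1.5-fold).

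**Figure D2:**
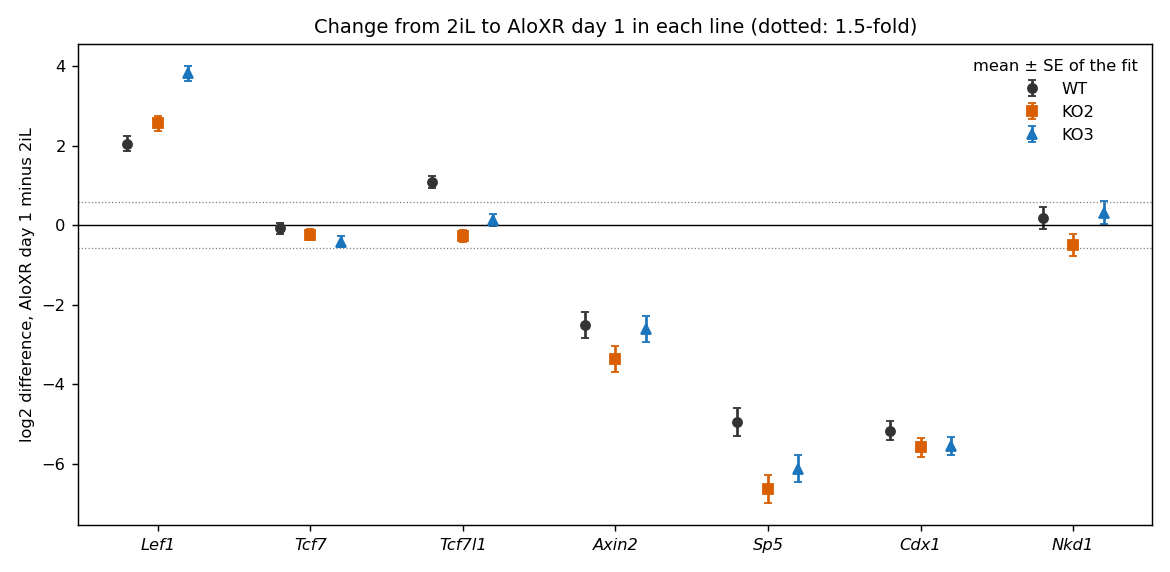
Log2 difference between AloXR day 1 and 2iL on the y axis for each gene on the x axis, by line, with the standard error of the fit as bars and dotted lines at 1.5-fold. Axin2, Sp5 and Cdx1 lie below the lower line and Lef1 above the upper line in all 3 lines, whereas Tcf7l1 clears 1.5-fold in WT (1.08) only, and the depth of the Sp5 and Cdx1 points is set by the pseudocount of 1 CPM.

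Against WT in 2iL, the depleted lines held less Lef1 and more Sp5 and Tcf7l1. So 3 of the 7 genes were called, against 15.7% of all genes. Lef1 lay below all 3 WT libraries in 6 of 6 depleted libraries, by 1.44 ± 0.17 on the log2 scale (adjusted p = 9.86e-09), and the depleted lines differed: KO3 differed from WT by -2.39 and KO2 by -0.49 (adjusted p = 0.0738). KO3 was also below KO2 in 2iL (-1.90 ± 0.20, adjusted p = 5.12e-09), where 7.24% of all genes were called.

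Sp5 was higher than in WT by 1.54 ± 0.32 (adjusted p = 2.81e-04), in the direction of the change in 6 of 6 libraries and above every WT library in 5 of them. This error and p use 1 spread per gene over all 12 groups, which include the AloXR groups at the detection limit. They do not measure the spread of the 2iL libraries alone. On the log2 scale the 2iL standard deviations were 0.912 (WT), 0.393 (KO2) and 0.782 (KO3), and those in AloXR 0 to 0.775. Sp5 was still called with only the groups compared. KO2 differed from WT by 1.83 and KO3 by 1.26. Without the third 2iL library of each line the difference was 2.20, and without the first WT library it was 1.14. DESeq2 did not call it (1.46, adjusted p = 0.197).

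Tcf7l1 was higher by 0.82 ± 0.15 (adjusted p = 3.68e-05), with 0.83 in KO2 and 0.80 in KO3. Its error and p, too, use 1 spread over all 12 groups and do not measure the spread of the 2iL libraries alone. The log2 standard deviations of Tcf7l1 were 0.479 (WT), 0.35 (KO2) and 0.345 (KO3) in 2iL, and 0.049 to 0.234 in AloXR. Tcf7l1 was still called with only the groups compared. All 6 depleted libraries were above the WT mean and 4 of 6 above every WT library. Without the second WT library, the lowest, the difference was 0.58 (adjusted p = 0.00521) and fell just short of 1.5-fold. In each line the third library was the highest for Tcf7l1, and leaving the third libraries out gave 0.89. Genes within 10 Mb of Tcf7l1 had a median difference of 0.06.

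The other 4 genes were not called in 2iL. Axin2 differed by 0.21 ± 0.30 (adjusted p = 0.694), Cdx1 by 0.41 ± 0.21 (0.170), Tcf7 by -0.32 ± 0.13 (0.0685) and Nkd1 by 0.32 ± 0.26 (0.417). The error for Cdx1, like that for Sp5, draws on AloXR libraries at the detection limit. Its log2 standard deviation reached 0.733 in 2iL (KO2) and at most 0.166 in AloXR (WT at day 3). For Cdx1 the third KO2 library, with 25.94 CPM, decided the call: without it the difference was 0.62 (adjusted p = 0.0140), and without the third library of each line 0.60 (0.0468).

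**Figure D3:**
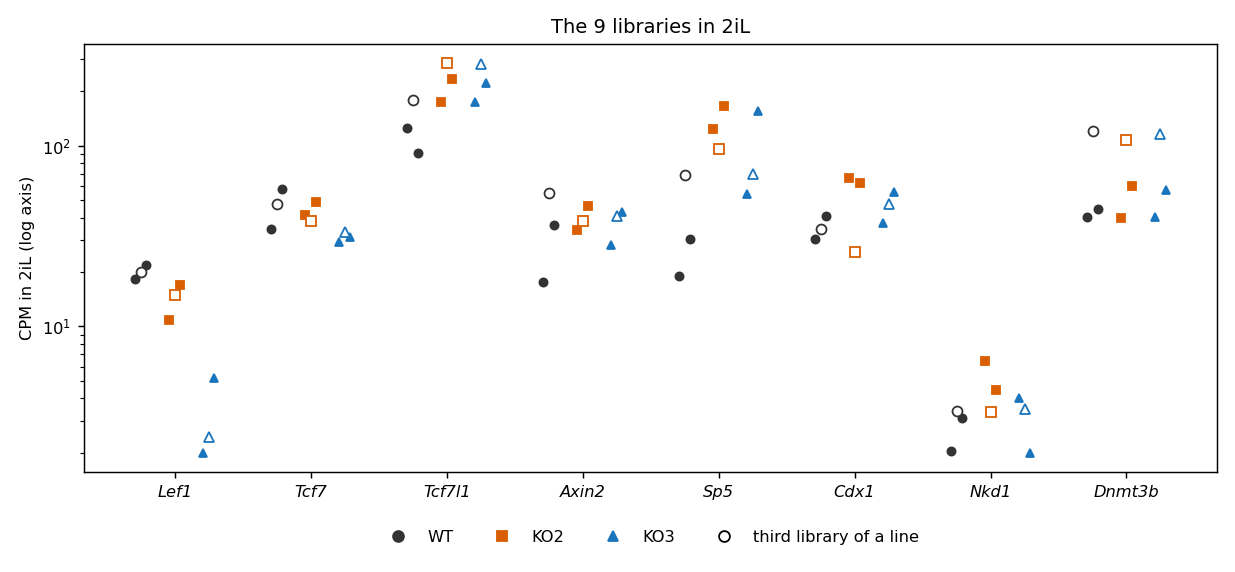
CPM on a log axis for the 7 genes and Dnmt3b in the 9 libraries in 2iL, with filled symbols for the first pair of libraries of a line and open symbols for the third. The open symbols are the highest of their line for Dnmt3b and Tcf7l1 in all 3 lines, and for Sp5 and Axin2 in WT only.

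These contrasts, the exits and the differences of changes share libraries, WT among them, and are not independent of each other. At AloXR day 1 none of the 7 genes was called with both lines averaged, against 11.8% of all genes. The smallest adjusted p was that of Tcf7, -0.56 ± 0.11 (1.45e-04), a difference under 1.5-fold that was called without the first KO2 library (-0.61). KO3 alone differed from WT in Lef1 (-0.62, adjusted p = 0.00696) and in Tcf7 (-0.87), and was below KO2 in both (-0.64 ± 0.17 and -0.62 ± 0.13, where 15.0% of all genes were called). Both of these calls between the depleted lines were lost when each gene was set against the median of its neighbours within 10 Mb (-0.51 and -0.49), and that for Tcf7 also with a pseudocount of 5 CPM (-0.55). The Lef1 call was also lost without the third KO2 (-0.50) or the first KO3 library (-0.56), and the Tcf7 call without the first (-0.54) or second (-0.58) KO2 library or the second KO3 library (-0.56).

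Lef1 then fell in WT at both later steps and by day 5 was higher in the depleted lines. The WT libraries held 46.06, 37.11, 52.18 and 49.39 CPM at day 3 and 15.92, 13.08, 15.23 and 13.75 CPM at day 5. Those of KO2 held 65.55, 56.27, 64.4 and 70.97 CPM at day 3 and 31.88, 41.4, 44.31 and 47.83 CPM at day 5. Those of KO3 held 68.47 and 54.5 CPM at day 3 and 70.77 and 62.96 CPM at day 5. At day 5 every depleted library was above every WT library, KO3 above KO2 above WT with no overlap.

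The WT steps were -0.89 ± 0.17 from day 1 to 3 (adjusted p = 8.07e-05; 18.7% of all genes called) and -1.60 ± 0.17 from day 3 to 5 (3.07e-09; 13.9% called). In KO2 the first step was -0.44 ± 0.17 (adjusted p = 0.0716; 12.2% called) and the second -0.64 ± 0.17 (0.0177; 4.34% called), the latter lost without the fourth day 3 library (-0.59, 0.0651) or the first day 5 library (-0.52, 0.0818). In KO3 neither step was called, at 0.13 ± 0.21 (7.66% called) and 0.13 ± 0.25 (1.09% called). The difference of changes from day 1 to day 5 was 2.08 ± 0.22 (adjusted p = 4.82e-09; 13.2% of all genes called), with 1.41 in KO2 and 2.75 in KO3. None of the other 6 genes was called in that comparison.

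Against WT, Lef1 was 0.44 ± 0.16 higher at day 3 (adjusted p = 0.0384), under 1.5-fold though all 6 depleted libraries lay above all 4 WT libraries. At day 5 it was higher by 1.79 ± 0.16 (adjusted p = 1.11e-11), with 1.44 in KO2 and 2.13 in KO3. The same gene was thus lower than WT in 2iL and higher at day 5. KO3 exceeded KO2 at day 5 by 0.69 ± 0.21 (adjusted p = 0.0183; 14.1% of all genes called), a call lost without the first KO2 library (0.58, 0.0630) or either KO3 library (0.61, 0.186 and 0.78, 0.0725).

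Tcf7 was lower in the depleted lines at days 3 and 5. In WT it was level, with 43.43, 47.8, 42.93 and 43.24 CPM at day 3 and 46.68, 52.7, 46.15 and 44.74 CPM at day 5, and none of its 3 steps was called. The KO2 libraries held 41.47, 48.5 and 38.29 CPM in 2iL, 42.93, 39.09, 33.31 and 29.99 CPM at day 1, 23.75, 27.25, 25.43 and 20.36 CPM at day 3 and 34.38, 39.75, 39.19 and 41.99 CPM at day 5. The KO3 libraries held 29.36, 31.05 and 33.12 CPM in 2iL, 23.07, 20.56, 25.07 and 23.94 CPM at day 1, 19.12 and 18.73 CPM at day 3 and 17.15 and 19.48 CPM at day 5. At days 3 and 5 all depleted libraries were below all WT libraries.

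The difference from WT was -1.02 ± 0.12 at day 3 (adjusted p = 4.73e-09), with -0.85 in KO2 and -1.19 in KO3. At day 5 it was -0.81 ± 0.12 (adjusted p = 8.66e-07), with -1.33 in KO3 and -0.29 in KO2 alone (adjusted p = 0.0953). KO3 was lower than KO2 by 1.04 ± 0.16 at day 5 (adjusted p = 4.45e-06). The KO2 course dipped, by -0.56 ± 0.13 from day 1 to 3 (adjusted p = 0.00115, under 1.5-fold in limma but called at -0.61 with TMM scaling, at -0.62 with quantile scaling and at -0.64 by edgeR and DESeq2, and without 1 of 4 libraries, at -0.59 to -0.65), and rose by 0.66 ± 0.13 from day 3 to 5 (5.58e-04).

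Tcf7 at day 3 was 1 of 7 genes called there, against 17.3% of all genes, and Lef1 and Tcf7 at day 5 were 2 of 7, against 20.6%. These shares are close to those of all genes and are no result about the group of 7 as such. Between KO3 and KO2 no gene of the 7 was called at day 3, where 7.69% of all genes were.

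Tcf7l1 rose in the depleted lines from day 1 to 3, and with both lines averaged no difference from WT was called at any AloXR time. The WT libraries held 363.24, 306.89, 319.94 and 364.17 CPM at day 3 and 445.87, 390.32, 334.62 and 316.21 CPM at day 5. Those of KO2 held 261.07, 361.82, 280.95 and 351.95 CPM at day 3 and 324.46, 312.05, 308.59 and 263.62 CPM at day 5, and those of KO3 374.65 with 411.15 CPM, then 433.07 with 454.51 CPM. From day 1 to 3 it rose in KO2 (0.73 ± 0.15, adjusted p = 2.85e-04) and KO3 (0.69 ± 0.18, 0.00917), the latter lost without either day 3 library (0.76, 0.0591 and 0.63, 0.156). The WT step was 0.32 ± 0.15 (0.105). Against WT it stood at -0.34 ± 0.13 at day 1 (adjusted p = 0.0517), 0.05 ± 0.14 at day 3 and -0.01 ± 0.14 at day 5. KO3 exceeded KO2 at day 5 by 0.56 ± 0.18 (0.0249), under 1.5-fold but called without the first KO2 library (0.59). In that comparison the genes within 10 Mb of Tcf7l1 had a median difference of 0.30, so part of the excess was shared with its neighbours.

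In AloXR, Axin2 stayed at a few CPM, as did Nkd1, while Sp5 and Cdx1 were at the detection limit. The WT Axin2 libraries held 2.64, 4.15, 2.37 and 3.26 CPM at day 3 and 5.24, 2.18, 4.77 and 5.46 CPM at day 5. Those of KO2 held 3.2, 2.27, 2.71 and 2.13 CPM and then 4.78, 2.84, 3.56 and 3.19 CPM, and those of KO3 4.94 with 1.46 CPM, then 1.69 with 1.36 CPM. The difference from WT at day 5 was -0.63 ± 0.28 (adjusted p = 0.0857) and in KO3 alone -1.05 (0.0267). Without the second WT library, the lowest, the averaged difference was -0.86 (0.0258).

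The fitted difference of changes of Sp5 on exit, -1.43 ± 0.43 (adjusted p = 0.0220), compares falls that all end at the detection limit, with an error from the same spread over all groups. It was not called by edgeR (-0.71, 0.920) or DESeq2 (-0.63, 0.855), without a filter on low values (0.0521), in KO3 alone (-1.17, 0.135), or without the first WT 2iL library (-1.02, 0.186), the second (-1.34, 0.0702), the second KO3 2iL library (-1.21, 0.0533) or the fourth WT day 1 library (-1.32, 0.0547).

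**Figure D4:**
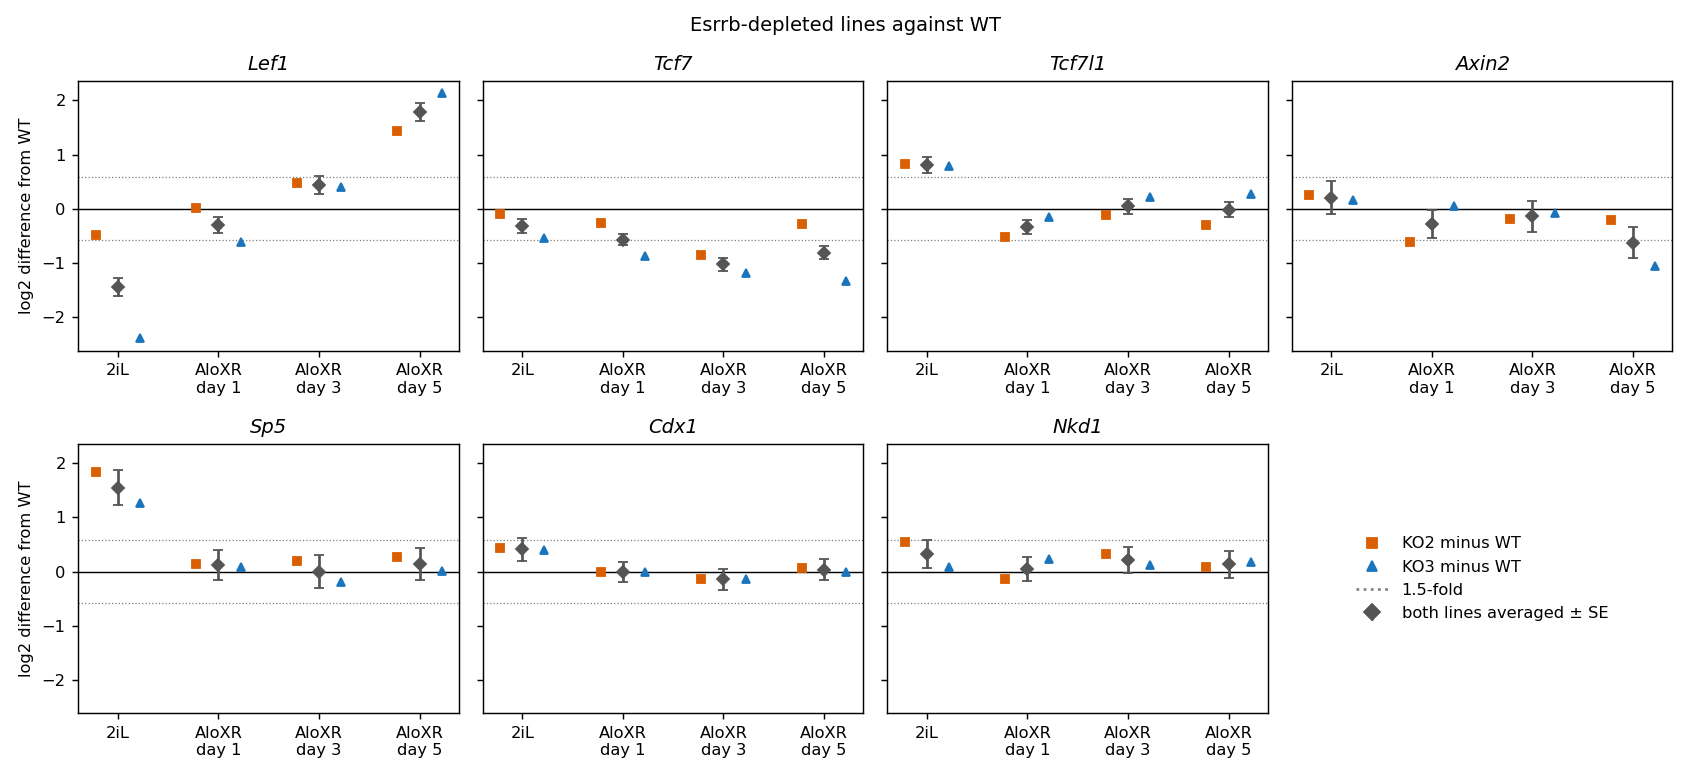
Log2 difference from WT on the y axis at each of the 4 conditions on the x axis, with diamonds and bars for both depleted lines averaged and its standard error, squares for KO2 and triangles for KO3. Lef1 runs from -1.44 in 2iL to 1.79 at day 5, Tcf7 is lowest at day 3 (-1.02), and Sp5 (1.54) and Tcf7l1 (0.82) differ in 2iL. In AloXR Tcf7l1 was not called, and Sp5 was at the detection limit, where a difference could hardly show.

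Ordered by group mean, Lef1 ran from 3.22 CPM in KO3 in 2iL to 89.0 CPM in KO2 at day 1. Only 3 of its 11 steps between neighbouring groups were free of overlap: those from KO3 to KO2 in 2iL, from WT at day 5 to WT in 2iL and from there to KO2 at day 5 (41.4 CPM). For Tcf7 the order ran from 18.3 CPM in KO3 at day 5 to 47.6 CPM in WT at day 5, with 2 of 11 steps free of overlap, and the 4 WT groups were within the top 4 places. Tcf7l1 ran from 132 CPM in WT in 2iL to 444 CPM in KO3 at day 5, with 1 of 11 steps free of overlap. For Axin2, Sp5 and Cdx1 the 3 groups in 2iL held the top places, clear of all AloXR groups. Neighbours in that order overlapped, but for Sp5 the WT and KO2 ranges in 2iL did not.

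Over the 12 group means of log2(CPM + 1), Sp5 and Cdx1 had a Pearson correlation of 0.993, and Axin2 correlated with them at 0.965 and 0.971. Against Axin2, Sp5 and Cdx1 the correlation was -0.79, -0.795 and -0.789 for Lef1 and -0.694, -0.60 and -0.638 for Tcf7l1. Among 11976 genes the closest to Sp5 were Prdm14 (0.994), a naive pluripotency factor, Cdx1 and Trpm1 (0.988), and the closest to Cdx1 were Prdm14 (0.997), Trpm1 (0.996) and Bcl3 (0.993). The closest to Axin2 were Tm7sf3 (0.987), Grasp (0.983) and Gm14820 (0.980). These values describe 2 clusters of points, 2iL and AloXR. Lef1 was closest to Ppp4r3a (0.963), Luc7l3 (0.959) and Brd2 (0.956), Tcf7 to Armt1 (0.966), Pecr (0.958) and Pcnx4 (0.952), Tcf7l1 to Smim10l1 (0.945), Gli3 (0.944) and Nudt5 (0.942), and Nkd1 to Ccnt1 (0.803), Prkab2 (0.741) and Slf2 (0.732).

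Upstream of the 7 genes, the summed Wnt ligands in 2iL held 8.37 to 8.87 CPM in WT, 16.44 to 20.71 CPM in KO2 and 10.45 to 14.62 CPM in KO3. At day 1 the sum was 6.73 to 9.59 CPM in WT, 20.08 to 26.21 CPM in KO2 and 17.78 to 23.94 CPM in KO3. At day 3 it was 12.38 to 17.08, 30.85 to 38.6 and 65.8 to 66.9 CPM. Both depleted lines thus lay above WT in 2iL and at days 1 and 3. At day 5 the sum was 30.11 to 36.85 CPM in WT, 22.09 to 40.22 CPM in KO2 and 65.67 to 78.5 CPM in KO3, so at that time only KO3 lay above WT. Several single ligands were higher in the depleted lines. Of 19 ligand genes 11 passed the filter, some only through the groups where they are high, so their counts are a description. In the depleted lines 1 was higher and 1 lower in 2iL, 5 higher and 0 lower at day 1, 7 and 0 at day 3, and 5 and 1 at day 5. Of all genes, 15.7%, 11.8%, 17.3% and 20.6% were called in either direction at these 4 times, and the same shares stand beside the lists below. Wnt7b stood at 0.18 to 0.43 CPM in WT at day 1, at 2.01 to 4.83 CPM in KO2 and at 5.01 to 6.55 CPM in KO3 (2.07 ± 0.22, adjusted p = 6.64e-10). At day 3 it stood at 0 to 0.54 CPM in WT, 5.04 to 14.13 CPM in KO2 and 19.53 to 21.41 CPM in KO3 (3.38 ± 0.24), and at day 5 the difference was 1.87 ± 0.24.

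Wnt4 was 2.84 to 4.26 CPM in WT at day 3, 10.21 to 11.65 CPM in KO2 and 19.71 to 20.36 CPM in KO3 (1.81 ± 0.27, adjusted p = 8.06e-07), and was not called at day 5. Wnt3 was higher at day 1 (1.03 ± 0.27, adjusted p = 0.00400), a call lost with a pseudocount of 5 CPM (0.57). Wnt3 was higher again at day 5 (1.25 ± 0.29, 7.52e-04), with 1.94 in KO3 and 0.57 in KO2 alone (0.188).

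Of the 2 genes needed to secrete Wnt proteins, Porcn, the acyltransferase that lipidates them, was higher in the depleted lines in 2iL: 2.5 to 2.86 CPM in WT, 14.65 to 17.52 CPM in KO2 and 4.23 to 10.46 CPM in KO3 (1.64 ± 0.29, adjusted p = 2.55e-05). Wls, the carrier of Wnt proteins to the cell surface, climbed in WT to 45.46 to 68.49 CPM at day 5. It held 14.25 to 17.76 CPM in KO2 and 15.46 to 16.31 CPM in KO3 there (-1.81 ± 0.25, 2.41e-07). Neither gene kept 1 direction: Porcn was lower at day 5 (-0.79 ± 0.27, 0.0219; lost in KO3 alone, -0.57, 0.230, and without the first WT library, -0.69, the fourth, -0.67, or the second KO3 library, -0.63), and Wls was higher in 2iL (0.87 ± 0.26, 0.0128) and at day 1 (0.84 ± 0.23, 0.00629) and lower at day 3 (-0.72 ± 0.25, 0.0260). The 2iL call of Wls was lost in KO2 alone (0.34, 0.467), the day 1 call in KO3 alone (0.49, 0.188) and the day 3 call in KO2 alone (-0.53, 0.162).

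Among 16 receptors and co-receptors, all above the filter, 1 was higher and 1 lower in 2iL, 1 and 3 at day 1, 1 and 2 at day 3, and 0 and 3 at day 5, or 2 to 4 of 16 at each time. The Frizzled receptor gene Fzd8 stood at 21.17 to 30.71 CPM in WT at day 5 and at 3.79 to 10.02 CPM in KO2 and 6.57 to 10.63 CPM in KO3 (-1.75 ± 0.23, adjusted p = 7.32e-08), and was lower at day 3 too (-1.63 ± 0.23). Fzd5 was lower in 2iL, with 64.39 to 86.46 CPM in WT, 25.12 to 36.62 CPM in KO2 and 32.7 to 53.87 CPM in KO3 (-1.09 ± 0.19, 1.11e-05). Fzd3 was lower at days 1, 3 and 5 (-0.86, -1.16 and -0.75), but set against its neighbours within 10 Mb these differences were -0.11, -0.49 and -0.13 and none was called. On leaving 2iL, Fzd2 rose by 2.96 ± 0.13 in WT, 2.37 in KO2 and 3.11 in KO3, while Fzd10 went from 65.8 to 3.29 CPM in WT (-3.89 ± 0.26).

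Of 17 secreted antagonists and agonists, 11 passed the filter, and 0 were higher and 2 lower in 2iL, 2 and 0 at day 1, 0 and 1 at day 3 and 0 and 0 at day 5, or 0 to 2 of 11 at each time. At day 5, by limma, no gene of this list was called. Sfrp1, a secreted Frizzled-like Wnt binder, had the largest averaged difference from WT of the genes in these pathway lists: 130.66 to 138.73 CPM in WT in 2iL against 4.96 to 13.81 CPM in KO2 and 8.01 to 21.44 CPM in KO3 (-3.63 ± 0.26, adjusted p = 1.49e-13). WT then lost it at day 1 (-3.93 ± 0.28, to 5.24 to 11.72 CPM), and at day 5 the lines stood at 61.22 to 76.6, 48.37 to 60.8 and 61.59 to 64.54 CPM.

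**Figure D5:**
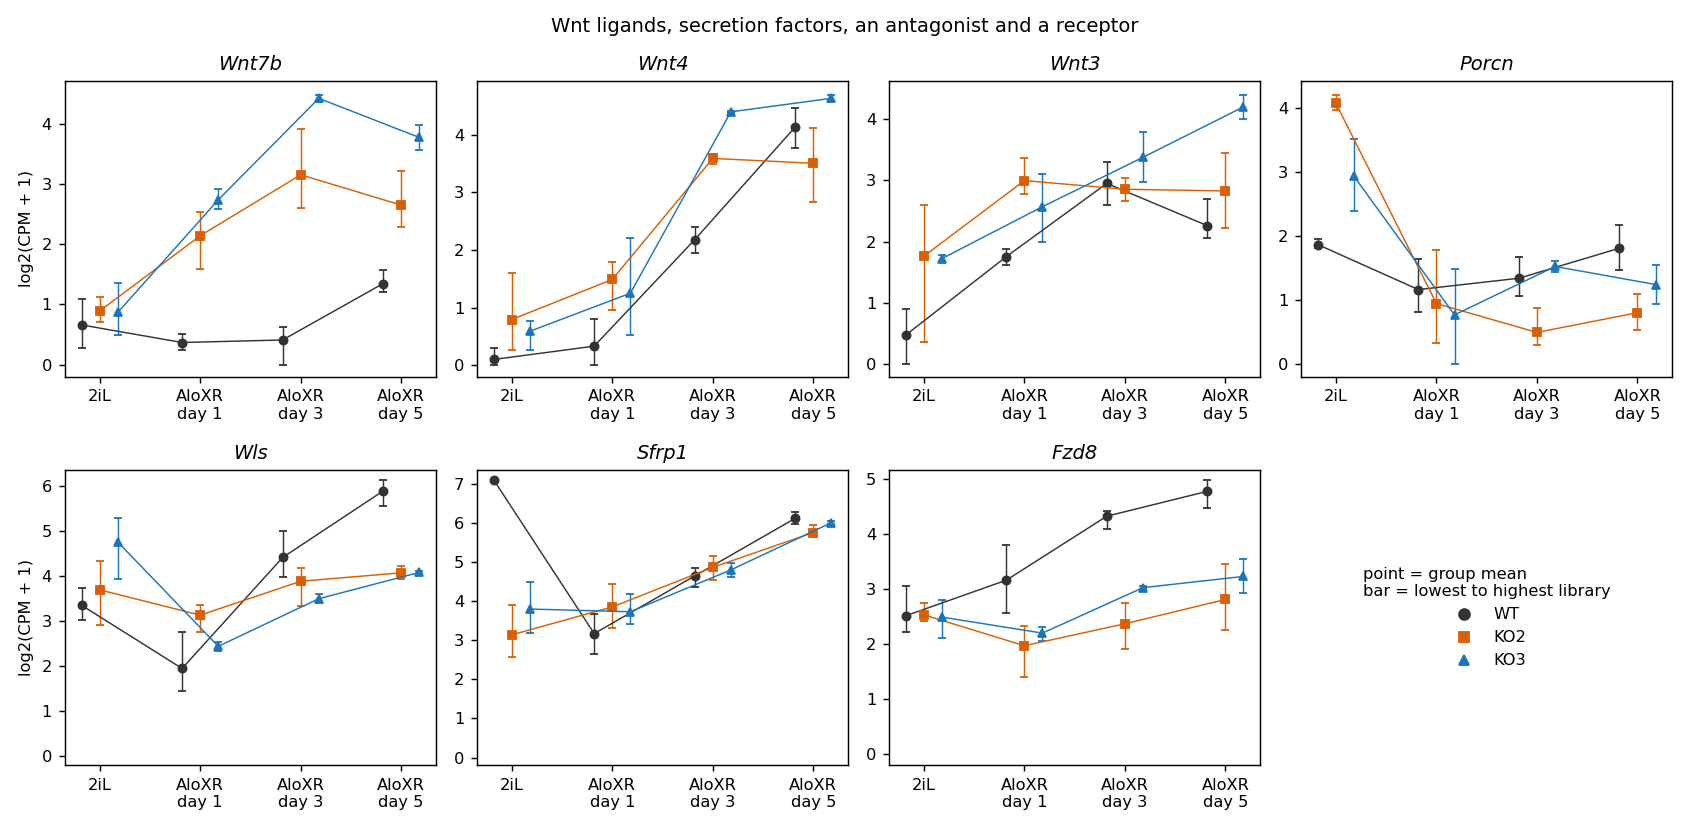
Group means of log2(CPM + 1) on the y axis by medium and time on the x axis for 3 Wnt ligands, 2 secretion factors, the antagonist Sfrp1 and the receptor Fzd8, with bars from the lowest to the highest library. Wnt7b separates the depleted lines from WT at all 3 AloXR times, Sfrp1 separates them in 2iL (130.66 CPM or more in WT, at most 21.44 CPM in the others), and Wls and Fzd8 are highest in WT at day 5.

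The signal relay between receptor and nucleus gave few calls. Of its 15 genes, which include β-catenin, both GSK3 genes, Apc and the Dishevelled genes, none was called on leaving 2iL in any line, with medians of 0.07, -0.07 and 0.18 beside 0.03, -0.04 and 0.04 for all genes. Against WT, only Apc2 was called, as higher at days 3 and 5, near the detection limit. Its means at these times were 0.49 and 0.61 CPM in WT, 2.11 and 1.80 CPM in KO2 and 1.47 and 1.17 CPM in KO3. Among 12 nuclear partners, 11 passed the filter: 0 were higher and 1 lower in 2iL, 0 and 0 at day 1, 1 and 1 at day 3 and 1 and 2 at day 5. The corepressor gene Tle4 was higher at day 3 (109 CPM in WT, 188 CPM in the depleted lines; 0.78 ± 0.18, adjusted p = 8.91e-04). The short Groucho relative Tle5, listed under its older symbol Aes, was lower at day 3 (-1.28 ± 0.17) and day 5 (-1.19 ± 0.17), and fell on leaving 2iL from 178 to 20.7 CPM in WT.

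Of 17 further targets and feedback genes 16 passed the filter. On leaving 2iL 3 rose and 5 fell in WT, 3 and 8 in KO2, and 4 and 9 in KO3, where 36.4%, 30.2% and 33.5% of all genes were called in either direction. The genes that fell in WT were Apcdd1, Notum, Rnf43 and Tnfrsf19, which encode membrane or secreted Wnt regulators and a receptor, and T, the mesoderm factor Brachyury. Notum, a Wnt deacylase, went from 15.1 to 2.31 CPM in WT (-2.15 ± 0.31). Those that rose in WT were Ascl2, Myc and Nkd2. Against WT, 3 were higher and 2 lower in 2iL, 0 and 1 at day 1, 2 and 2 at day 3 and 1 and 0 at day 5. The cyclin gene Ccnd1 was lower in 2iL, at 309 CPM in WT and 114 CPM in the depleted lines (-1.55 ± 0.20, adjusted p = 3.43e-07), as was Apcdd1 (-1.07 ± 0.25). Myc was higher at day 5 (2.32 CPM in WT, 11.5 CPM in the depleted lines; 1.93 ± 0.40, 3.55e-04).

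Of the naive genes that Tcf7l1 is known to repress, Nanog, Klf2, Tfcp2l1 and Esrrb itself were examined, and all 4 fell on leaving 2iL in each line. In WT, Nanog went from 506 to 18.1 CPM, Klf2 from 481 to 5.81 CPM, Tfcp2l1 from 618 to 6.50 CPM and Esrrb from 375 to 15.1 CPM. The falls were smaller in the depleted lines, with differences of changes of 0.70 ± 0.22 for Nanog (adjusted p = 0.0351), 0.90 ± 0.30 for Klf2 (0.0439), 1.26 ± 0.28 for Tfcp2l1 (0.00142) and 1.69 ± 0.36 for Esrrb. The first pair of calls was lost under quantile scaling (Nanog 0.59, 0.0731; Klf2 0.82, 0.0560) and without the third 2iL libraries (0.69, 0.0563 and 0.75, 0.132), and in KO2 alone Tfcp2l1 (0.95, 0.0573) and Esrrb (0.79, 0.265) were not called. For Esrrb and Tfcp2l1 the depleted lines started lower (Tfcp2l1 283 CPM in both), whereas Nanog and Klf2 were not called in 2iL and were higher than WT at day 1 (0.81 ± 0.15 and 1.04 ± 0.20; Klf2 in KO3 alone 0.54, 0.0791). At day 5 Nanog was 89.6 CPM in WT, 40.8 CPM in KO2 and 28.8 CPM in KO3 (-1.37 ± 0.16, 6.61e-09).

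Markers of other cell types and states also differed between the lines, not in the same way at each time. Of 8 trophoblast markers 7 passed the filter, and 3 were higher in the depleted lines in 2iL, 6 at day 1, 7 at day 3 and 4 at day 5, with none lower. Plac1 and Hand1 reached at most 0.85 and 0.43 CPM in WT, so they passed only through the depleted groups where they are high. Some markers in the lists below passed in that way too, so all these counts are a description. The trophoblast list was made with earlier results known, and its summed level at day 3 was 113.84 to 144.06 CPM in WT, 401.4 to 682.77 CPM in KO2 and 518.39 to 565.4 CPM in KO3. Krt8 and Krt18 held most of it, with means of 28.5 and 101 CPM in WT, 126 and 370 CPM in KO2 and 106 and 357 CPM in KO3. The defining marker Elf5 had no read in WT at day 3. It reached at most 0.39 CPM in KO2 and 0.41 CPM in KO3, below the floor of 3 reads. At day 5 the sum was 284.16 to 331.57 CPM in WT, 243.35 to 289.17 CPM in KO2 and 449.98 to 460.85 CPM in KO3, so it was higher in KO3 and not in KO2. In 2iL the 3 lines overlapped, at 97.8 to 188.08 CPM. Ascl2 stands in this list and among the Wnt targets. Of 6 primitive endoderm markers 5 passed, and 4 were higher at day 3 and 4 at day 5. At day 5 their sum was 3.76 to 6.76 CPM in WT, 6.15 to 10.02 CPM in KO2 and 48.69 to 56.04 CPM in KO3, so WT and KO2 overlapped. There Gata4, Sox17 and Pdgfra had means of 0.19, 0.16 and 0.33 CPM in KO2 and 0.17, 0.06 and 0.22 CPM in WT. Gata6 was lower in KO2 (0.41 CPM) than in WT (0.65 CPM), with 14.4 CPM in KO3. Dab2 held 4.49 CPM in WT, 6.95 CPM in KO2 and 23.2 CPM in KO3. Of 6 formative markers 4 were lower at day 1, where the sum was 1782 to 1827 CPM in WT, 1024 to 1107 CPM in KO2 and 798 to 858 CPM in KO3. At day 5 the formative sums overlapped, with 998.18 to 1061.88 CPM in WT, 725.66 to 1128.81 CPM in KO2 and 1058.16 to 1065.73 CPM in KO3. There Pou3f1 was higher in the depleted lines and 3 of the 6 were lower, and in 2iL Dnmt3a was higher and 2 were lower. Of 6 naive markers 4 were lower in 2iL, with a sum of 1078.71 to 1258.52 CPM in WT, 430.48 to 477.05 CPM in KO2 and 409.87 to 576.53 CPM in KO3. Neural markers summed to 138.1 to 163.67 CPM in WT at day 5, 132.25 to 231.38 CPM in KO2 and 246.84 to 264.96 CPM in KO3, with 1 of 6 called higher and 2 lower. Most of that sum was Nes, with means of 124 CPM in WT, 175 CPM in KO2 and 246 CPM in KO3. Six3 went the other way, with means of 21.4, 0.49 and 1.77 CPM. Of 6 mesendoderm markers 5 passed, and at day 5 2 were higher and 1 lower, with sums of 10.25 to 17.46, 8.88 to 29.59 and 33.09 to 35.33 CPM. Fibroblast and feeder markers summed to 54.68 to 99.67 CPM in KO2 at day 3, against 20.09 to 26.41 CPM in WT and 18.49 to 23.03 CPM in KO3. The part of these cell types and states in the values of the 7 genes and the ligands was not tested.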

How the data were processed

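QuantSeq 3′ libraries were made with the Lexogen kit from total RNA, per the labels' protocols. Per the submitters' processing notes, the processing named GRCm38, STAR 2.7.6a and featureCounts 2.0.1 of Subread; the strand setting is not given in the sources used here. The authors deposited 1 table of CPM for 55487 Ensembl genes in 41 libraries, of which 55141 carry a symbol and 346 do not. Because the smallest step of a column is 1 read, reads were recovered from the deposited CPM, and 100% of 766190 values above 0 were whole within 0.01 reads. Gene positions are from GENCODE vM21 (GRCm38).

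Genes reaching 1 CPM or more in 3 or more libraries (16967) were tested as log2(CPM + 1) in limma 3.58.1 (R 4.3.3): 1 mean per line and time over all 41 libraries (29 residual degrees of freedom), empirical Bayes with trend and robust variances, and Benjamini-Hochberg adjustment over all genes. Both depleted lines were averaged with equal weight. The script was tested on simulated data. Alternatives were edgeR 4.0.16 and DESeq2 1.42.0 on the recovered reads, TMM and quantile scaling, a pseudocount of 5 CPM, no filter and a stricter one, only the groups compared, each line alone, differences set against genes within 10 Mb with at least 10 CPM, and each library left out. The labels give no batch. The 7 genes, the pathway and marker lists and the comparisons were chosen with earlier results of these data known. Named beside the 7 were, per pathway list, called genes among the up to 4 with the largest change in each comparison with WT and each exit from 2iL and a group mean of at least 5 CPM, the 4 naive genes, and the 3 genes most like each of the 7. Apc2, and T, Nkd2 and others given without values, complete small counts and were chosen after their values were seen.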

Additional observations from a re-analysis of the deposited data

Results flagged for a closer look

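Some changes over time differed between the depleted lines and WT in a test of that difference (limma, depleted minus WT, log2 scale). For the step from 2iL to AloXR day 1 these were Lef1 (1.14), Tcf7l1 (-1.15) and Sp5 (-1.43) among the 7 genes. Of the other pathway genes they were Sfrp1 (4.25), Wnt7b (1.85), Sfrp4 (1.52), Fzd10 (1.46), Apcdd1 (1.06), Ccnd1 (0.84), Fzd3 (-0.83), Lgr4 (-1.01), Fzd8 (-1.07) and Porcn (-1.94). Of the naive genes they were Esrrb (1.69), Tfcp2l1 (1.26), Klf2 (0.90) and Nanog (0.70). For the change from day 1 to day 5 they were Lef1 (2.08), Myc (1.96), Ccnd1 (1.24), Ctbp2 (0.76), Tle1 (-0.59), Wnt4 (-1.10), Wnt9a (-1.28), Nanog (-2.17) and Wls (-2.65). Sfrp1 differed from WT by -3.63 in 2iL and by 0.62 at day 1, and Sp5 by 1.54 in 2iL with day 1 at the detection limit.

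A single library stood far from the other 3 of its group in 5 of 44 sets of values examined. These were Tcf7 in WT at day 3 (47.8 CPM), Sp5 in WT at day 3 (0.71 CPM), Cdx1 in KO2 at day 5 (0.23 CPM), Nkd1 in KO3 at day 1 (2.62 CPM, the lowest) and Nkd1 in KO2 at day 3 (4.54 CPM). The Sp5 and Cdx1 values rest on 3 reads and 1 read. Each came from the only library of its group with a read, which the rule flags at any level. The cut-off is made for normally distributed values, so 5 of 44 cannot be set against a rate expected by chance.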

How the results depend on the processing

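For the 7 genes, 2426 of 2471 values under the alternatives kept their direction and their side of the threshold, 28 lost a call, 17 gained one and none reversed; signs of values called in neither fit changed 105 times and are counted as kept. The calls lost or gained are given beside the results. Of 96 named calls of other pathway genes, 73 were kept in every alternative and 23 were lost in at least 1. Besides those given beside the results, the latter were, against WT, Fzd6 and Rnf43 in 2iL, Ccnd1, Lgr4, Rspo1 and Sfrp1 at day 1, Lrp6 and Wnt9a at day 3, and Ror1, Tle1, Tle4 and Wnt9a at day 5. On exit they were Sfrp1 and Wnt3 in KO2 and Wnt3 in KO3. Esrrb at day 1, -0.42 and not called for both lines averaged, was called higher in KO3 alone (1.11). That average joins opposite directions, with KO2 (1.64 to 5.52 CPM) below WT (12.15 to 17.75 CPM).

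Counts of called genes changed by over 1.5 times under some settings, and the cause was not tested. With a pseudocount of 5 CPM, which shrinks changes of low genes, depleted lines against WT gave 1396 genes in 2iL, 848 at day 1, 1338 at day 3 and 1731 at day 5 (2666, 2005, 2931 and 3491 as reported). KO3 against KO2 gave 739, 1231, 864 and 1463 (1228, 2542, 1304 and 2389). The exits gave 4016 genes (WT), 3095 (KO2) and 3580 (KO3), against 6180, 5123 and 5690, the WT steps 1702 and 1309 (3177 and 2364) and the KO2 steps 1025 and 391 (2064 and 737). With only the groups compared, which leaves fewer libraries, depleted lines against WT in 2iL gave 1385, KO3 against KO2 in 2iL 118, the KO2 step from day 3 to 5 444 and the KO3 step 472, against 185 as reported and 283 without a filter. Leaving out 1 library gave 878 to 1977 for KO3 against KO2 in 2iL (the highest without the third KO3 library), 423 to 1369 at day 3 and 1083 to 2304 at day 5 (the lowest without a KO3 library). It gave 460 to 759 for the KO2 step from day 3 to 5 (the lowest without the second day 5 library), 539 to 1237 for the KO3 step from day 1 to 3 and 65 to 82 for that from day 3 to 5, and 1092 to 2507 for the difference of changes on exit (the highest without the third WT 2iL library).

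No paired analysis was possible because the labels give no replicate numbers that the groups share. Depth limits all 4 targets in AloXR, and KO3 at days 3 and 5 rests on 2 libraries. With 1 WT line and 2 depleted lines, effects of Esrrb loss cannot be told apart from other differences between the lines.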
